A study of Rattus norvegicus with 4 samples.

Results

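The mitochondrial genome was examined as a row of 326 windows of 50 bases in ChIP-seq libraries made with an antibody against the glucocorticoid receptor (GR) and with normal rabbit IgG. The windows take in every base from the first of the mitochondrial sequence in the rat build rn4 to position 16300, the highest read end. They were filled with all 9144 mitochondrial reads among the 1875208 aligned reads of the series, or 0.488% of them. A read was counted once, at its 5' end, on its own strand. Of the 326 windows, 300 held a 5' end in every one of the 4 libraries and 8 held none in any. Windows are given by their coordinates, counted from 1. No annotation of this build was used here, so no window is assigned to a gene, and no sequence is shown.

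Mitochondrial DNA is a small circular molecule, present in many copies in each cell and packaged by the protein TFAM in place of histones. It encodes ribosomal RNAs, transfer RNAs and subunits of the respiratory chain, and both of its strands are transcribed from promoters in a non-coding control region. The control region also holds the origin of heavy-strand replication and the displacement loop, where an additional short DNA strand is often paired with the light strand. The numbering of the rat mitochondrial reference starts at the gene of a transfer RNA next to the control region, passes through the small and large ribosomal RNA genes, and ends in the control region. GR is a ligand-activated transcription factor of nuclear genes that has also been reported in mitochondria.

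The tissue was the hippocampus of male Sprague-Dawley rats aged 8 weeks. All animals had lost their adrenal glands 3 days earlier, so that they made no corticosterone of their own, and all were killed 1 hour after an injection into the abdomen of 300 or 3000 µg/kg corticosterone bound to hydroxypropyl-cyclodextrin. Each dose had 6 animals. Sheared chromatin of 6 hippocampal hemispheres was pooled and divided between antibodies (6 µg each, and the GR antibody was H-300). One library per antibody and dose was analysed here. The groups are therefore GR and IgG at 3000 µg/kg (the high dose) and GR and IgG at 300 µg/kg (the low dose), each with n = 1, and no library is the measurement of a single animal. A group without injection and a precipitation of the mineralocorticoid receptor, both named in the labels, were not analysed here.

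With 1 library per group no difference has a replicate check. Every p-value below rests on the reads of single libraries, compared between libraries or between the strands of 1 library, and does not compare the antibodies or doses as conditions. Intervals are 95% intervals and cover counting error only, with reads taken as independent. Both ends of a fragment may be counted as separate reads, so that intervals may be too narrow and p-values between libraries too low. Each library held 468802 reads of 36 bases. Reads with the same start and strand as another were absent, so that a window could hold at most 50 5' ends per strand. Between 3.82% and 9.18% of the mitochondrial start positions were in use, counted over both strands. Where reads lie this densely, keeping 1 read per start can remove more reads of different fragments than in the nuclear genome. How many reads were removed is not known here.

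Mitochondrial reads were fewest in the GR library at the high dose. That library held 1244 mitochondrial reads, or 0.269% of its mitochondrial and nuclear reads (exact interval 0.254 to 0.284%; nuclear reads are those on chromosomes 1 to 20 and X). The IgG library of the same dose held 2312 reads, or 0.501% (0.481 to 0.522%). In the low-dose pair the GR library held 2596 reads, or 0.562% (0.541 to 0.584%), and the IgG library 2992 reads, or 0.648% (0.625 to 0.672%). The intervals of the 4 libraries did not overlap, and at each dose the GR library was the lower one. Per base, the mitochondrial genome was 449.8 times as dense in reads as the nuclear chromosomes in the GR library at the high dose and 839.7 to 1088 times as dense in the other 3 libraries.

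The number of mitochondrial reads per nuclear read in GR, divided by that in IgG, was 0.536 at the high dose (interval by Woolf's method 0.4999 to 0.574; adjusted p = 3.41e-73, Fisher's exact test, two-sided, Benjamini-Hochberg over 4 pairs of libraries). At the low dose the ratio was 0.866 (0.822 to 0.913; adjusted p = 9.87e-08, Fisher's exact test). The 2 IgG libraries, which had no GR antibody, also differed. Their ratio of high to low dose was 0.771 (0.731 to 0.815; adjusted p = 9.12e-21, Fisher's exact test), further from 1 than the GR to IgG ratio at the low dose and closer to 1 than that at the high dose. The GR libraries of the doses had a ratio of 0.477 (0.446 to 0.510; adjusted p = 4.47e-108, Fisher's exact test). The spread between control libraries was thus as large as one of the GR to IgG differences, and with n = 1 the part of antibody, dose and library cannot be told apart.

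No chromosome showed a difference of this size. At the high dose the GR to IgG ratio ran from 0.869 on chromosome X to 1.14 on chromosome 12 over 21 chromosomes, with a median of 1.00, and unplaced sequences had a ratio of 0.855. The chromosomes of the low-dose pair ran from 0.955 (X) to 1.03 (17), and unplaced sequences stood at 0.963. The mitochondrial ratio lay below the lowest chromosome in each of the 4 pairs.

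**Figure D1:**
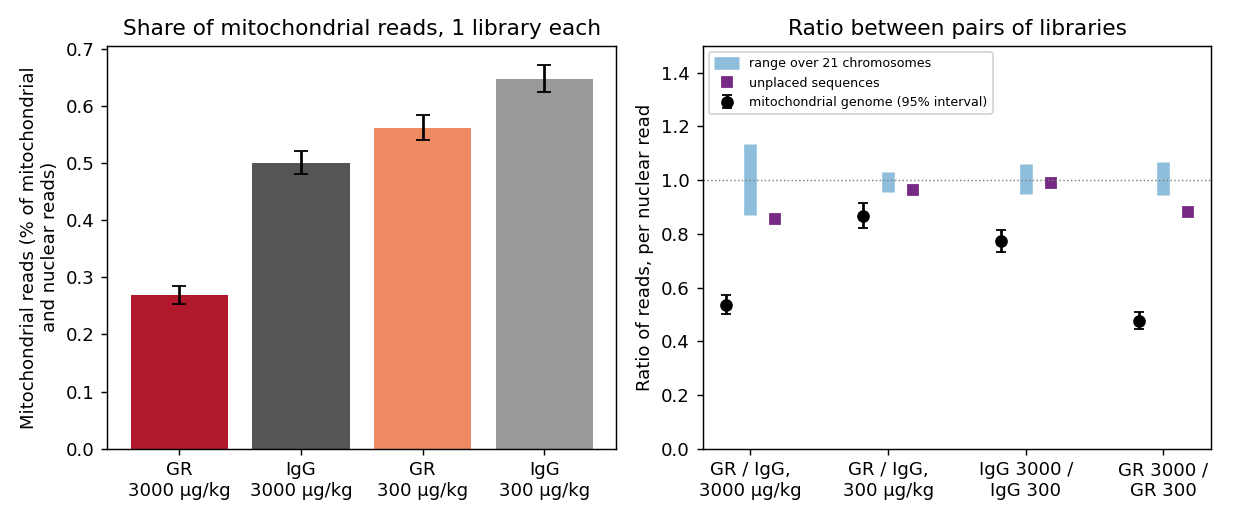
Left, mitochondrial reads as a percentage of mitochondrial and nuclear reads in each of the 4 libraries, with exact 95% intervals. Right, ratio of reads per nuclear read between pairs of libraries for the mitochondrial genome (points with 95% intervals), for unplaced sequences (squares) and for the chromosomes (bars from the lowest to the highest of 21); the mitochondrial ratios of 0.477 to 0.866 lie under the bars in all 4 pairs.

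Reads were spread unevenly along the mitochondrial genome, and in a like way in every library. The median window held 4 5' ends in the GR library at the high dose, 7 in its IgG library, 8 in the GR library at the low dose and 9 in its IgG library. The highest window held 11, 24, 23 and 32 in the same order. The variance of the window counts was 1.38, 2.12, 2.27 and 2.63 times their mean, where counting alone gives about 1. Across windows the counts of 2 libraries correlated with Pearson r of 0.455 to 0.594 and Spearman rho of 0.378 to 0.539 over the 6 pairs of libraries (326 windows). These are descriptions: all points share 1 reference sequence, its base composition and how well reads align to each part. In segments of 1000 bases, where counting error weighs less, r was 0.897 to 0.931 (17 segments).

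How much of the scatter between libraries was counting error was estimated from the covariance of 2 libraries, divided by the product of their standard deviations after removal of the Poisson part, a description added after seeing the data. This ratio is near 1 when libraries share 1 profile, and it can exceed 1. It was 1.01 to 1.21 in windows of 50 bases, 0.884 to 0.985 in windows of 200 bases and 0.958 to 0.997 in segments of 1000 bases. By this estimate, for which no interval was computed, most or all of the variation beyond counting error was common to the libraries, GR and IgG alike. In windows of 50 bases every pair of libraries exceeded 1, so the estimate is rough there and a small difference between profiles could be missed. The relative standard deviation beyond counting error was 0.316 in the GR library at the high dose and 0.397 to 0.422 in the other 3.

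**Figure D2:**
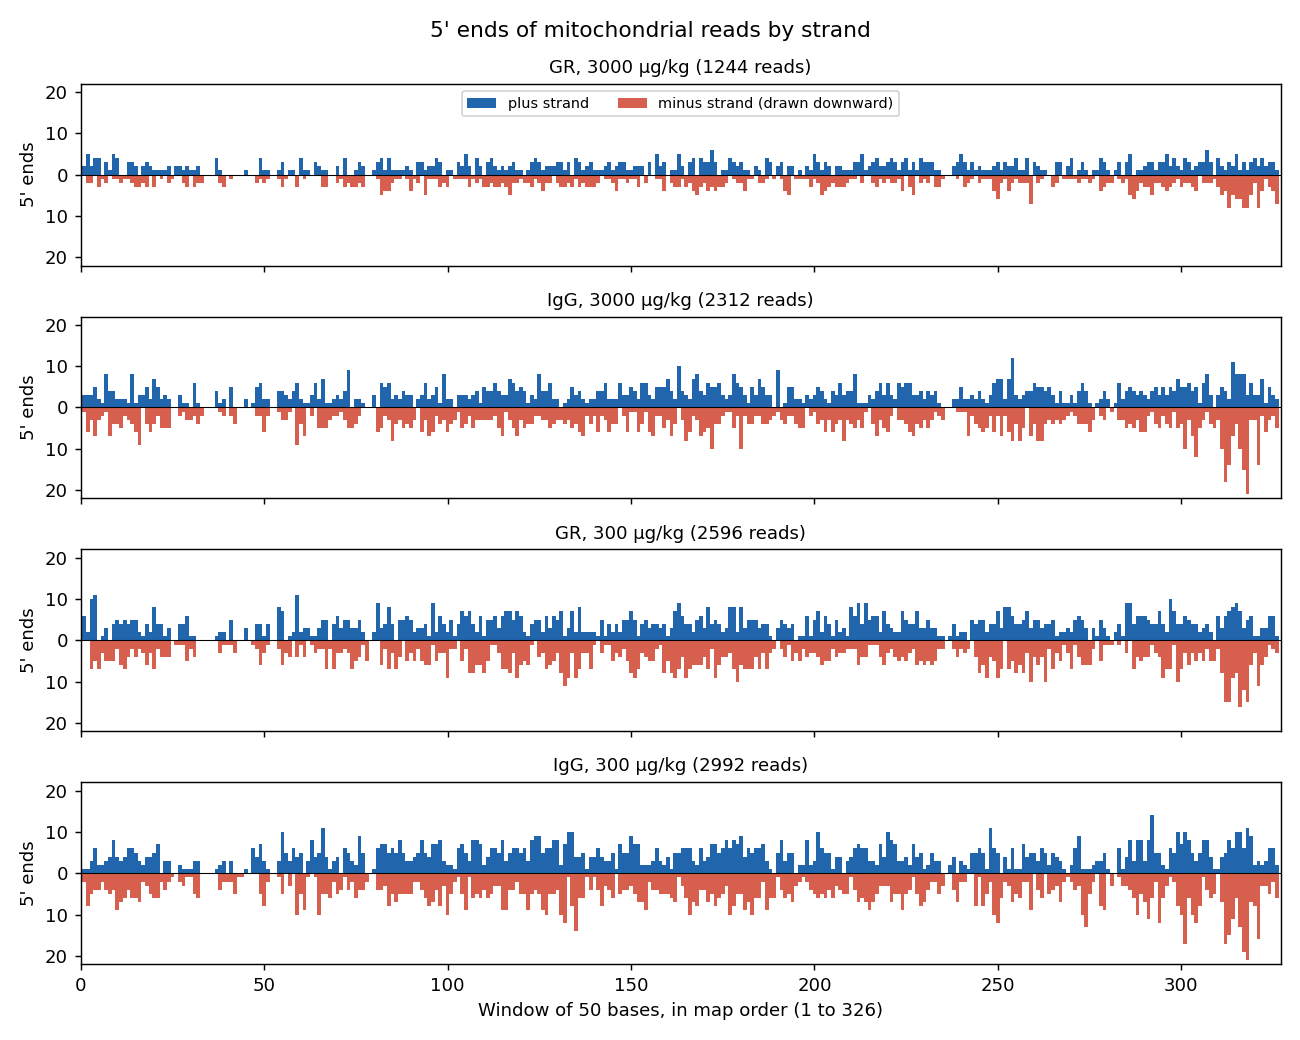
Number of 5' ends in each of the 326 windows of 50 bases, in map order, in the 4 libraries; plus-strand ends point up and minus-strand ends point down. Gaps in the first part of the map and a block of tall minus-strand bars near its right end recur in every library, while the height of the profile follows the 1244 to 2992 reads of the library.

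The stretch of lowest density lay near the start of the map. Segment 1001 to 2000 held 42 reads in the GR library at the high dose, 68 in its IgG library, 66 in the GR library at the low dose and 71 in its IgG library. Relative to an even spread these are densities of 0.550, 0.479, 0.414 and 0.387. Segments 2001 to 3000 and 3001 to 4000 were also thin, at 0.419 to 0.613 and 0.629 to 0.790 of an even spread. The lowest segment was 1001 to 2000 in 3 libraries and 2001 to 3000, with 32 reads, in GR at the high dose. From 4001 to 15000 the segments ranged from 0.773 to 1.41 over the 4 libraries.

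Some stretches held no read of any library. The longest runs of windows with no 5' end covered 1651 to 1800 (3 windows), 2551 to 2650 (2 windows) and single windows at 2251, 3901 and 11751. At single-base resolution, no read of either strand had its lowest aligned base between 1580 and 1813, a run of 234 bases. The next longest such runs were 2514 to 2652 (139 bases), 11702 to 11830 (129 bases) and 3850 to 3975 (126 bases), against a median run of 2 bases. In all, 896 bases (5.50% of 16300) were covered by no read, where the 4 libraries together covered a base 20.2 times on average. These gaps were the same in GR and IgG libraries by construction, since they were defined over all 4. Whether reads from these parts can be aligned uniquely was not tested.

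The stretch of highest density lay near the end of the map, in segment 15001 to 16000, if the last 300 bases are set aside. It held 132 reads in the GR library at the high dose (10.6% of mitochondrial reads, exact interval 8.95 to 12.5%), and 257 reads in its IgG library (11.1%, 9.86 to 12.5%). At the low dose it held 237 reads in the GR library (9.13%, 8.05 to 10.3%) and 317 reads in the IgG library (10.6%, 9.51 to 11.8%). An even spread would give 6.13%, which lies below all 4 intervals, whereas the intervals of the libraries overlapped each other. The last 300 bases, 16001 to 16300, stood at 1.83 times an even spread in the GR library of the high dose (42 reads) and at 0.984 to 1.25 times in the others (47 to 57 reads). The windows with the most 5' ends fell between 15001 and 16000 as well. Among them, 15851 to 15900 was the highest of both IgG libraries, with 9 5' ends in GR and 24 in IgG at the high dose and 20 and 32 at the low dose. Window 15601 to 15650 was the highest of the GR library at the high dose, together with 15701 and 15801, at 11 5' ends each, and 15751 to 15800 was the highest of the GR library at the low dose, at 23. The 3 highest windows of each library made up 7 different windows, and only 1 of these lay before 15501, window 15001 to 15050, with 27 5' ends in the IgG library at the low dose against 15, 9 and 6 in the IgG library at the high dose and the GR libraries at the low and the high dose.

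The main comparison asked whether any window held a larger or smaller part of the mitochondrial reads in GR than in IgG of the same dose. None was called at either dose. At the high dose, 313 windows had a 5' end in at least 1 of both libraries and 0 were called in either direction at an adjusted p of at most 0.05 (0% of windows higher and 0% lower; Fisher's exact test on the windows' share of each library's own mitochondrial total, two-sided, Benjamini-Hochberg over the 313 windows). At an unadjusted p under 0.05 there were 4 windows, or 1.28%, 2 higher and 2 lower in GR, and an exact binomial test also called 0, with 4 at an unadjusted p under 0.05. At the low dose 0 of 317 windows were called in either direction (0% higher and 0% lower), with 13 windows, or 4.10%, at an unadjusted p under 0.05, 9 higher and 4 lower in GR; the exact binomial test gave 0 and 13. The lowest adjusted p was 1 at the high dose and 0.529 at the low dose (Fisher's exact test).

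The control libraries, compared with each other in the same way, gave like numbers. Between the IgG libraries 0 of 317 windows were called (0% in each direction), with 13, or 4.10%, at an unadjusted p under 0.05, and the exact binomial test gave the same 0 and 13. Between the GR libraries of the doses 0 of 316 windows were called (0% in each direction) and 12, or 3.80%, had an unadjusted p under 0.05 by either exact test. Counted by size alone, 12.1% of windows were at least 2-fold higher and 11.2% at least 2-fold lower in GR at the high dose (log2 ratio of shares with a pseudocount of 0.5 5' ends). The same held for 9.15% and 10.1% at the low dose and for 9.46% and 10.4% between the IgG libraries. Between the GR libraries 15.5% of windows were at least 2-fold higher and 10.8% at least 2-fold lower at the high dose. Ratios past 2-fold were therefore about as common between control libraries as between GR and IgG. They were most common in the pairs that include the GR library at the high dose, which had the fewest reads. Such windows numbered 83 between the GR libraries, 73 and 61 for GR against IgG at the high and low dose, and 63 between the IgG libraries.

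At the high dose, the windows of lowest p with a higher GR share held few reads. Window 3801 to 3850 held 5 5' ends in GR and 1 in IgG, a ratio of 9.29 (1.04 to 440; unadjusted p = 0.0222, Fisher's exact test). Window 13851 to 13900 held 8 and 4, a ratio of 3.72 (0.996 to 16.9). Windows 4551 to 4600 and 11051 to 11100 held 5 and 2 each, and 6501 to 6550 held 6 and 3. At the low dose the counts of both libraries were closer together, or the order was reversed. There, GR and IgG held 3 and 9 5' ends in window 3801, 10 and 11 in window 13851, 5 and 7 in window 4551, 6 and 12 in window 11051 and 15 and 12 in window 6501.

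With a lower GR share at the high dose stood window 7951 to 8000, with 0 5' ends in GR, which allows up to 3, and 10 in IgG (unadjusted p = 0.0182, Fisher's exact test). Windows 7751 to 7800 and 13151 to 13200 also held 0 in GR, against 9 and 8 in IgG. Window 3601 to 3650 held 2 and 14, a ratio of 0.266 (0.0293 to 1.16), and 351 to 400 held 1 and 11, a ratio of 0.169 (0.00393 to 1.16). At the low dose the GR library was not empty in any of the 3 windows: it held 6, 9 and 6 5' ends in windows 7951, 7751 and 13151, against 9, 7 and 7 in IgG. Windows 3601 and 351 held 8 and 9, and 5 and 9, in GR and IgG of the low dose, and the ratio in window 351 was 0.640.

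At the low dose, windows 5251 to 5300 and 12601 to 12650 each held 15 5' ends in GR and 4 in IgG, a ratio of 4.32 (1.38 to 17.9; adjusted p = 0.529, Fisher's exact test). Window 1401 to 1450 held 11 and 2, a ratio of 6.34 (1.38 to 58.9). Window 15451 to 15500 held 8 and 1, and 8101 to 8150 held 16 and 6. In the libraries at the high dose, GR and IgG held 5 and 4 in window 5251, 6 and 13 in window 12601, 5 and 4 in window 1401, 7 and 6 in window 15451 and 8 and 10 in window 8101. Window 12601 was also among the windows of lowest p between the IgG libraries, with 13 5' ends at the high dose against 4 at the low dose, a ratio of 4.21 (1.30 to 17.7), so that its low count was that of the IgG library at the low dose.

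Lower in GR at the low dose were window 1551 to 1600, with 0 5' ends in GR and 9 in IgG (adjusted p = 0.529, Fisher's exact test), and window 14551 to 14600, with 5 and 20, a ratio of 0.288 (0.0845 to 0.791). Window 15001 to 15050 held 9 and 27, window 7001 to 7050 held 1 and 10, and window 13901 to 13950 held 4 and 14. At the high dose GR and IgG held 4 and 5 5' ends in window 1551, 8 and 5 in window 14551, 6 and 15 in window 15001, 3 and 10 in window 7001 and 6 and 7 in window 13901. Scaled to the mitochondrial totals, windows 15001 and 7001 were again lower in GR, with ratios of 0.743 and 0.558, and the other 3 were not.

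Between the IgG libraries, window 12051 to 12100 held 9 5' ends at the high dose and 1 at the low dose, a ratio of 11.6 (1.61 to 511), and had the lowest unadjusted p of any window in the 4 comparisons (0.00343, Fisher's exact test; adjusted p = 1). Window 12501 to 12550 held 14 and 6. Windows 14501 to 14550, 10651 to 10700 and 6551 to 6600 held 4 and 19, 2 and 13, and 5 and 19. The window of lowest p thus separated control libraries and not GR from IgG.

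**Figure D3:**
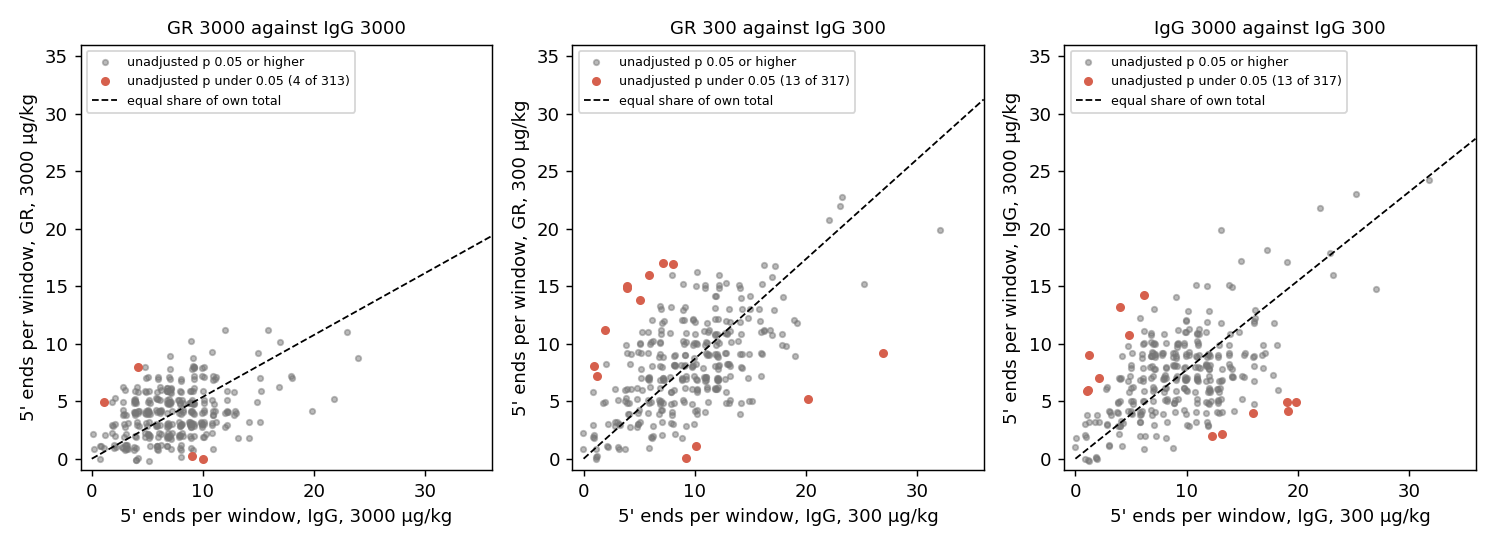
Each point is a window of 50 bases, placed by its number of 5' ends in 2 libraries (shifted at random by a small amount so that points do not hide each other); the dashed line marks an equal share of each library's own mitochondrial total. Windows with an unadjusted p under 0.05 (Fisher's exact test; 4 of 313, 13 of 317 and 13 of 317) lie on both sides of the line in GR against IgG and in IgG against IgG alike, and 0 passed adjustment.

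These counts limit what a window can show. At the high dose a window with the median IgG count of 7, to which 3.77 5' ends in GR correspond at equal share, would have needed 19 in GR, a ratio of 5.04, to reach 0.05 divided by the 313 windows in Fisher's exact test. For the low dose, a window with the median IgG count of 9 would have needed 30, a ratio of 3.84. At neither dose would 0 reads in GR at such a window have passed that bound. These sizes hold for a window with the median IgG count and for that bound, which is stricter than the adjustment used for the calls. They differ for windows with more or fewer reads.

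Longer units held more reads and gave tighter bounds. Over the 17 segments of 1000 bases, of which the last held 300 bases, the GR to IgG ratio of shares ran from 0.684 to 1.47 at the high dose and from 0.835 to 1.34 at the low dose. No segment was called at the high dose (0% in each direction, 0 at an unadjusted p under 0.05) or at the low dose (0% in each direction, 1 at an unadjusted p under 0.05; lowest adjusted p = 0.0608, Fisher's exact test, Benjamini-Hochberg over 17 segments). The segment of lowest p at the low dose was 12001 to 13000, with 199 reads in GR and 171 in IgG, a ratio of 1.34 (1.09 to 1.66). At the high dose the same segment held 83 and 173 reads, a ratio of 0.892 (0.678 to 1.16).

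The one segment called in any pair separated the control libraries. Segment 6001 to 7000 held 133 reads in IgG at the high dose and 243 at the low dose, a ratio of 0.708 (0.569 to 0.879; adjusted p = 0.0139, Fisher's exact test; 5.88% of segments lower and 0% higher). With opposite ends of fragments merged as described below, it was no longer called, and the lowest adjusted p of that pair was 0.887. Between the GR libraries 0 segments were called (0% in each direction; 1 at an unadjusted p under 0.05, the last 300 bases from 16001, with 42 reads at the high and 47 at the low dose, a ratio of 1.86, 1.20 to 2.89).

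The GR to IgG ratios of the doses, which share no library, had little in common. The median window held only 4 to 9 5' ends in the libraries, so counting error could hide a shared difference. Over the 312 windows with reads in both pairs, the log2 ratios correlated with Pearson r of 0.0372 and Spearman rho of -0.0123. Both ratios were above 0 in 81 windows and below 0 in 76, and they had opposite signs in 155. Past 2-fold at both doses, 7 windows were higher in GR, 2 were lower and 9 went in opposite directions. No window had an unadjusted p under 0.05 at both doses in the same direction (0 windows, Fisher's exact test).

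The strands were used unequally in the last part of the map, in GR and IgG alike. Over the whole mitochondrial genome the plus strand took 49.2% of 5' ends in the GR library at the high dose (exact interval 46.4 to 52.0%), 47.6% in its IgG library (45.6 to 49.7%), 47.8% in the GR library at the low dose (45.9 to 49.7%) and 46.9% in its IgG library (45.1 to 48.7%). The intervals of 3 libraries thus lay below an even division, and that of GR at the high dose did not. On the nuclear chromosomes the plus strand took 49.9% to 50.0%. GR and IgG differed by 1.58 percentage points at the high dose and 0.879 at the low dose, which was within counting error (adjusted p = 0.618 in each of the 4 pairs, Fisher's exact test).

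Much of this imbalance lay in segment 15001 to 16000, the one of highest density. It held 54 plus and 78 minus 5' ends in the GR library at the high dose, 99 and 158 in its IgG library, 91 and 146 in the GR library at the low dose and 124 and 193 in its IgG library. The plus strand took 40.9%, 38.5%, 38.4% and 39.1% in the same order. Minus-strand ends outnumbered plus-strand ends 1.44 to 1.60 times in all 4 libraries. Of the 17 segments, this one was called in 3 of the 4 libraries, each time with the minus strand higher and as the only call (5.88% of segments; exact binomial test at an even division, two-sided, Benjamini-Hochberg over the segments of a library, a test added after seeing the data). The adjusted p was 0.00477 in IgG at the high dose, 0.00728 in GR and 0.00215 in IgG at the low dose. In GR at the high dose, the library with the fewest reads, 0 segments were called (0%), and this segment had an unadjusted p of 0.0449 (exact binomial test) and an adjusted p of 0.597. Between libraries its plus-strand share differed by 2.39 percentage points for GR against IgG at the high dose and by -0.720 at the low dose (adjusted p = 0.931 each, Fisher's exact test).

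The excess of the minus strand was clearest after 15500. In segments of 500 bases, a finer division also tested after seeing the data, 15501 to 16000 was the only one of 33 called. It was called in every library. It held 25 plus and 57 minus 5' ends in GR at the high dose (adjusted p = 0.0176, exact binomial test), 58 and 105 in IgG at the high dose (adjusted p = 0.00951, exact binomial test), 55 and 107 in GR at the low dose (adjusted p = 0.00177, exact binomial test) and 71 and 124 in IgG at the low dose (adjusted p = 0.00596, exact binomial test). The plus-strand share there was 30.5% (20.8 to 41.6%), 35.6% (28.3 to 43.4%), 34.0% (26.7 to 41.8%) and 36.4% (29.7 to 43.6%). The 500 bases before it, from 15001, held 29 plus and 21 minus, 41 and 53, 36 and 39, and 53 and 69 5' ends, with no call. Segment 10501 to 11000, also not called, had more plus-strand ends in both GR libraries. It held 28 plus and 12 minus at the high dose and 58 and 32 at the low dose (adjusted p = 0.182 and 0.119, exact binomial test). The IgG libraries held 35 and 39, and 54 and 54. This segment was picked after its values were seen, and whether GR and IgG differ there was not tested.

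The excess of the minus strand was largest in a few windows. Summed over libraries, window 15851 to 15900 held 20 plus and 65 minus 5' ends, 15551 to 15600 held 16 and 54, 15801 to 15850 held 20 and 54, and 15601 to 15650 held 20 and 52. Just past the segment, 16001 to 16050 held 9 and 49. In each of these 5 windows the minus strand was the higher one in all 4 libraries. Window 15851 gave 1 plus and 8 minus 5' ends in GR and 3 and 21 in IgG at the high dose, and 5 and 15 in GR and 11 and 21 in IgG at the low dose. The windows were picked for their excess after their values were seen, and the sums serve as a description. Tested window by window, 0 windows were called for strand in any library (0% in each direction; 71 windows with at least 6 5' ends tested in GR and 214 in IgG at the high dose, 232 and 254 at the low dose; exact binomial test), with 3, 11, 14 and 20 at an unadjusted p under 0.05. The lowest adjusted p of any window was 0.0593, at 15851 to 15900 in IgG at the high dose. With at least 10 5' ends required, that library had 1 call, with the minus strand higher.

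Outside 15001 to 16000 the plus-strand share was 50.2% in GR and 48.8% in IgG at the high dose and 48.7% and 47.9% at the low dose. Only the interval of the IgG library at the low dose, 45.9 to 49.8%, still excluded an even division. Some windows had the reverse imbalance. Window 8101 to 8150 held 29 plus and 11 minus 5' ends over all libraries, with 10 and 0 in IgG at the high dose, and windows 9451 to 9500 and, inside the segment, 15301 to 15350 held 19 and 2, and 26 and 9.

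**Figure D4:**
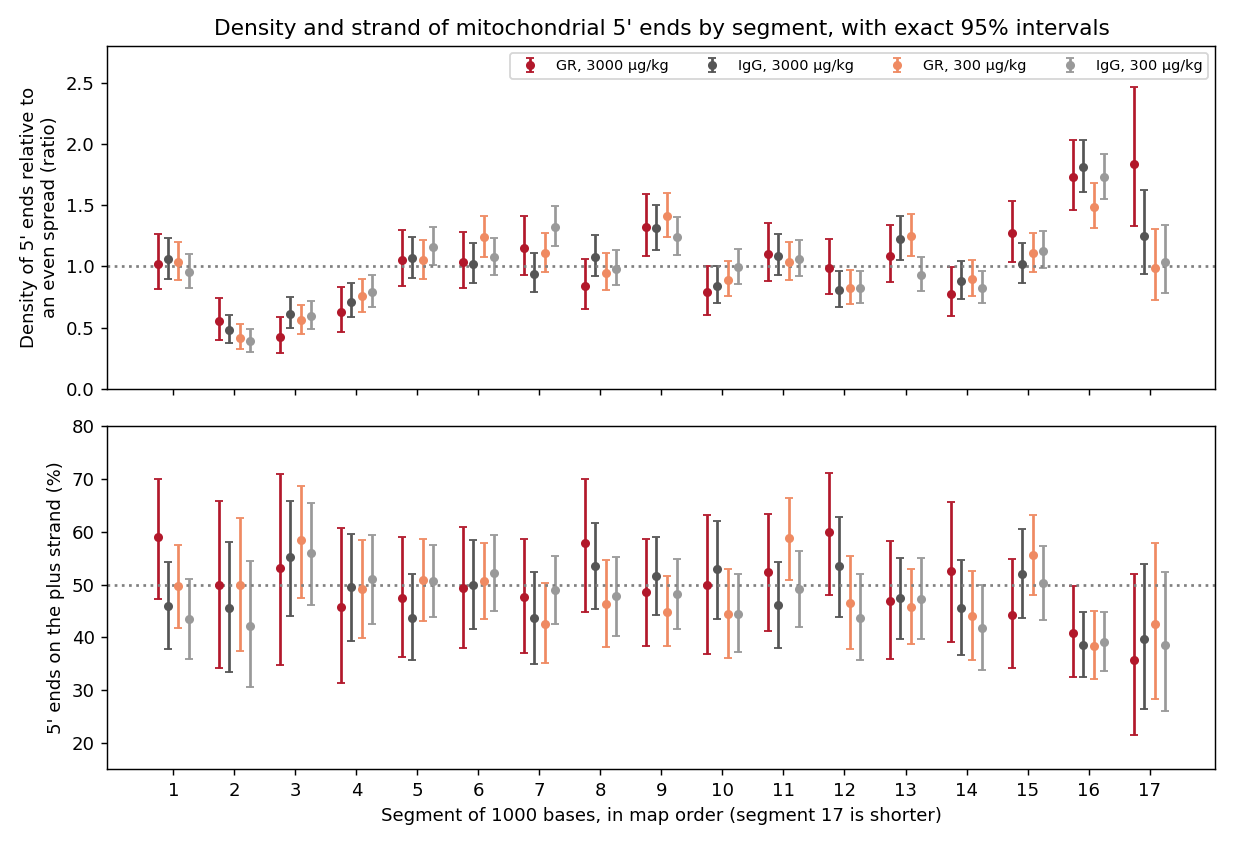
Density of 5' ends relative to an even spread (upper panel) and share of 5' ends on the plus strand (lower panel) in segments of 1000 bases, in map order, for the 4 libraries, with exact 95% intervals. Segments 2 to 4 lie below an even spread in every library, and segment 16 combines the highest density of the full-length segments with a plus-strand share of 38.4% to 40.9%.

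Against the pairs at other distances, paired ends stood out less in the mitochondrial than in the nuclear reads. The distances from plus-strand to minus-strand 5' ends had their maximum at 100 to 109 bases in GR and 80 to 89 bases in IgG at the high dose, and at 90 to 99 and 100 to 109 bases at the low dose. In 3 of the 4 libraries this was the bin of the nuclear maximum, and in GR at the high dose the nuclear maximum was at 90 to 99 bases. The mitochondrial maxima held 310, 1180, 1296 and 1808 pairs, 1.24, 1.37, 1.19 and 1.27 times the mean of the bins from 200 to 299 bases. On the nuclear chromosomes the maximum was 19.3, 164.0, 85.4 and 131.7 times that mean. Mitochondrial reads lie so close together that most pairs at any distance join reads of different fragments. The ratio to that mean is thus not a measure of how many reads are both ends of the same fragment. In IgG at the high dose, which had the highest mitochondrial ratio, 1180 pairs stood against a mean of 861.7. That library had 1101 plus-strand mitochondrial reads in all. The share of reads that are both ends of the same fragment was not estimated. Merging plus-strand and minus-strand ends 50 to 140 bases apart took in 77.8% to 87.8% of mitochondrial reads, against 30.5% to 52.8% of nuclear reads. Counts of merged fragments are therefore a less certain measure here than in the nuclear genome.

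**Figure D5:**
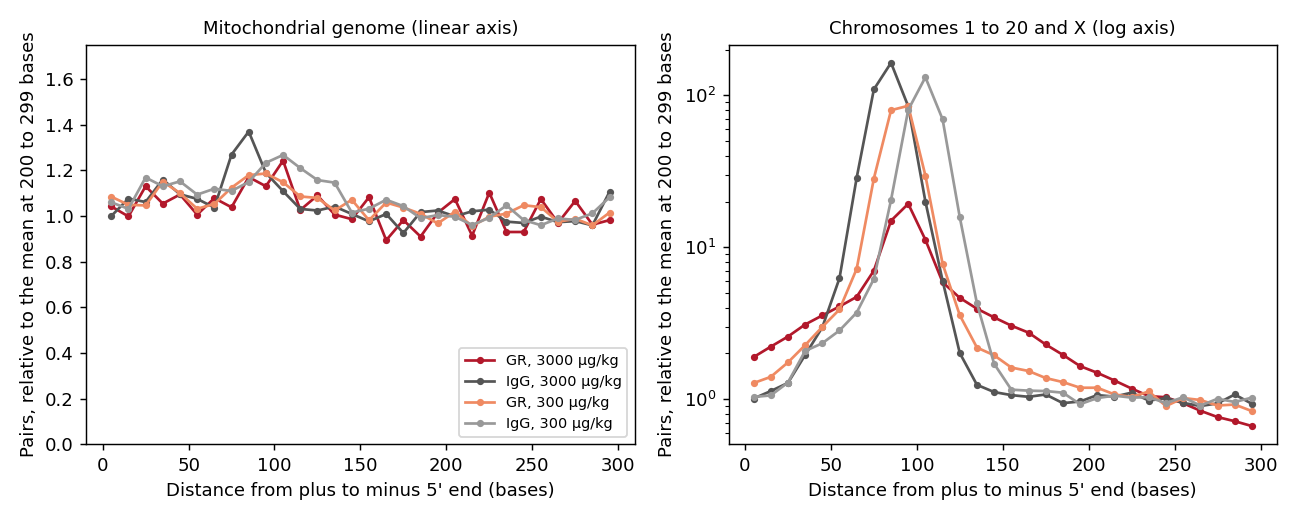
Number of pairs of a plus-strand and a minus-strand 5' end at each distance (bins of 10 bases), relative to the mean from 200 to 299 bases, on the mitochondrial genome (left, linear axis) and on chromosomes 1 to 20 and X (right, log axis). Each library's mitochondrial maximum of 1.19 to 1.37 stands at 80 to 109 bases, near its much higher nuclear maximum.

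Exact start positions recurred between libraries somewhat more often than their use overall. Of the 5' ends of the GR library at the high dose, 111 (8.92%) stood at a position and strand also used in the IgG library of that dose, which used 7.09% of all positions. For GR at the low dose, 374 (14.4%) were shared with its IgG library, which used 9.18%. The IgG libraries shared 291 positions, 12.6% of the smaller library. The unevenness of the profile was not taken into account in these shares.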

How the data were processed

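Chromatin immunoprecipitation with a GR antibody or IgG was followed by sequencing in 4 libraries. The authors deposited reads aligned to build rn4, each with a count of 1; the build is given in the submitters' processing notes, which also name bedtools and MACS. The sources used here state neither the aligner and filters nor how the totals became equal. The labels' protocols describe 18 rounds of amplification for the libraries at 3000 µg/kg only.

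Mitochondrial 5' ends were counted in windows of 50 and segments of 1000 bases, by strand. Libraries were compared by Fisher's exact test on each library's own mitochondrial total, with Benjamini-Hochberg adjustment and a threshold of 0.05. Windows with no 5' end in either library were not tested. Intervals of window ratios are exact (Clopper-Pearson); a count of 0 allows up to 3. Python 3.11.15 with scipy 1.17.1 was used, and the window test was tested on simulated data. Named windows are the 5 of lowest p in each direction at each dose, the 3 in each direction between the IgG libraries, the 3 fullest windows of each library and the longest empty runs. Members, tests and alternatives were chosen with earlier results of these data known. Alternatives were other windows, scales, counting, strands, tests and IgG libraries.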

Additional observations from a re-analysis of the deposited data

Results flagged for a closer look

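The GR to IgG ratio of mitochondrial reads stood out because it differed between the doses. The ratio at 3000 µg/kg was 0.618 times that at 300 µg/kg (95% interval by Woolf's method 0.567 to 0.674; p = 8.70e-28, Zelen's exact test of equal odds ratios, two-sided, chosen after seeing the data). The GR library had the lower share at both doses. The test compares 4 libraries with n = 1 per group. The IgG libraries alone differed by a ratio of 0.771, and the part of the single libraries in the difference was not tested.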

How the results depend on the processing

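No window was called in any of the 44 combinations of a pair of libraries with an alternative setting (other window sizes, an offset of 25 bases, nuclear scale, merged fragments, a shift of 75 bases, single strands, a minimum of 10 5' ends, the exact binomial test, the other or pooled IgG). Apart from the nuclear scale, the lowest adjusted p under them was 0.118 for GR against IgG at the high dose, 0.130 at the low dose and 0.0569 between the IgG libraries. On the nuclear scale, which keeps the difference in share, 44 windows had an unadjusted p under 0.05 at the high dose (Fisher's exact test; lowest adjusted p = 0.0996) against 4 on the mitochondrial scale. The ratios of named windows kept their sign in 164 of 170 recalculations. These windows were picked for low p or high counts in the same libraries, so kept signs say little about them. The 6 changes of sign came with a shift of 75 bases or merged fragments.

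The GR to IgG ratio of mitochondrial reads was recalculated only against the IgG library of the same dose. It was 0.505 to 0.539 for the high dose and 0.861 to 0.881 for the low dose, and every pair kept its call. The lower GR share at the low dose depends on that choice of control. GR at the low dose held 0.562%, which lies above the 0.501% of IgG at the high dose. With fragments merged the segment called between the IgG libraries was lost (0 segments); the cause was not tested. For strand, 1 window was called in IgG at the high dose with at least 10 5' ends required, where fewer windows were tested, and 1 in IgG at the low dose in windows of 100 bases. In GR at the high dose the strand test by segments gave 1 call, and not 0, with segments starting at position 500 and also 1 in segments of 500 bases. No paired analysis was possible because each group has 1 library. Leaving out a replicate was not possible for the same reason. Depth limits windows more than segments.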
